A study of Mus musculus with 8 samples.

Results

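The exocyst is a protein complex that tethers secretory vesicles to the plasma membrane before they fuse with it. It is built from 8 kinds of subunit, EXOC1 to EXOC8, which form a pair of subcomplexes, EXOC1 to EXOC4 and EXOC5 to EXOC8, and EXOC6 has a paralog, EXOC6B. Small GTPases such as those of the Ral and Rab families bind its subunits and SNARE proteins then fuse the tethered vesicle. In muscle and fat cells the complex is known for its part in bringing GLUT4, the insulin-responsive glucose transporter, to the cell surface, and RalB with the exocyst has also been described as a platform on which autophagy proteins assemble. All 9 genes, *Exoc1* to *Exoc8* with *Exoc6b*, were found in the table, each with 1 probe set, among 21980 gene symbols and 22206 probe sets in all.

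The genes were selected by name, with the results of this contrast already known. The one measured value in the selection was the mean of both group averages, which was to choose among probe sets of a gene, and it made no choice because no gene had a second probe set. The samples were gastrocnemius (GAS) muscles of male C57/Bl6j mice aged 22 weeks, collected 12 weeks (3 months) after intramuscular injection of adeno-associated virus of serotype 1 (AAV) at about 10 weeks of age. The 4 MYTHO-KD muscles received AAV sh-RNA Mytho, a short hairpin RNA against *D230025D16Rik* (*Mytho*) driven by the U6 promoter, and the 4 scramble muscles were contralateral legs that received AAV sh-RNA scrmb, a scramble hairpin under the same promoter. U6 is active in all cell types that the virus enters, and every muscle of both groups carried an AAV and a hairpin. RNA was measured on Clariom S Mouse arrays, which give 1 log2 signal per probe set. The table used here holds the authors' average and the authors' standard deviation (SD) of each group and no value of a single array, so that whether single muscles of the groups overlap is not known. The averages ran from 3.18 to 19.93 and the median SD was 0.27 in both groups. The sh-RNA target *D230025D16Rik* was at 20.2% of scramble (log2 difference -2.31, standard error 0.304, adjusted p = 0.0138, limma).

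*Exoc4* was the exocyst gene with the largest difference between the groups, and it fell. It encodes EXOC4, the mammalian counterpart of yeast Sec8, and lies on chromosome 6 from 33249085 to 33973979 on the plus strand (mm10), spanning 724895 bases. The stretch just before it is shown here because it precedes the one subunit gene that passed the test. The 207 bases below are from RefSeq (GRCm38.p6), chr6:33248878-33249084, plus strand, written 5′ to 3′ and ending at the base before the gene's start in the table. Capitals mark matches to 2 of the motifs searched, CAGCTG and CCAAT (read here as ATTGG on the other strand).
*Exoc4* upstream: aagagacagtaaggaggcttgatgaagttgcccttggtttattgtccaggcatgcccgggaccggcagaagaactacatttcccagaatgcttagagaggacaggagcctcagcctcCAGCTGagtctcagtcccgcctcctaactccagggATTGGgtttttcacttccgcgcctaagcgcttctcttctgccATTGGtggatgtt

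The authors' average of *Exoc4* was 14.83 (log2; authors' SD 0.21) in scramble and 13.07 (authors' SD 0.41) in MYTHO-KD. The averages were 1.76 apart, while the SDs of the groups added up to 0.62. The log2 difference, MYTHO-KD minus scramble, was -1.76 (standard error 0.216, 95% interval -2.23 to -1.29, n = 4 per group, adjusted p = 0.00846, limma's moderated test). *Exoc4* was thus 3.39-fold lower (95% interval 2.44 to 4.70), at 29.5% of scramble. Among all probe sets it ranked 9 by p-value and 8 by the size of the fall, and 0.189% of probe sets had a difference at least as large in either direction. In a bulk sample, less RNA per cell and fewer cells of a type that expresses the gene cannot be told apart. The call depended on moderation, in which each variance is drawn toward the typical variance of all probe sets. Without it the adjusted p was 0.126 (interval of the difference -2.32 to -1.20), and with unequal variances 0.302 (-2.37 to -1.15).

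**Figure D1:**
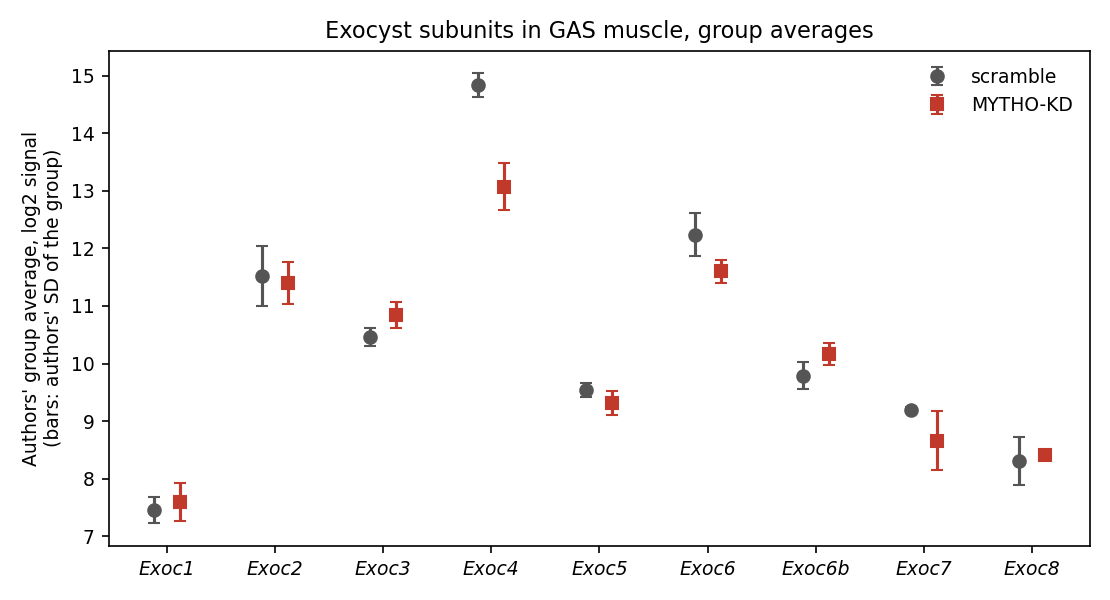
Group averages of the 9 exocyst genes from the deposited table (vertical axis, log2 signal; bars, the authors' SD of each group), scramble as grey circles and MYTHO-KD as red squares. The bars of *Exoc4* are far apart, from 14.83 in scramble to 13.07 in MYTHO-KD; levels of different genes are not comparable, since each probe set has its own sensitivity.

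No other subunit passed the adjusted threshold of 0.05. By that rule 1 of 9 exocyst genes was lower and 0 were higher, where 0.0946% of all probe sets were lower and 0.180% higher. At an unadjusted p under 0.05 in the moderated test, *Exoc4*, *Exoc6* and *Exoc7* were lower and *Exoc3* was higher, against 5.52% and 6.48% of all probe sets. *Exoc4* alone met the study's rule of 2-fold with an unadjusted p under 0.05 and was lower by it, as were 0.257% of probe sets, while 0.860% were higher by it. The median log2 difference of the 9 genes was -0.12, and it was -0.005 over the 8 genes other than *Exoc4*, of which 4 were higher and 4 lower. The median of all probe sets was -0.01, with quartiles at -0.19 and 0.17.

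The other genes of the EXOC1 to EXOC4 subcomplex had small differences. *Exoc1* encodes the counterpart of yeast Sec3, which binds membrane phosphoinositides, and lies on chromosome 5 from 76529311 to 76570298. Its average was 7.46 (SD 0.23) in scramble and 7.60 (SD 0.33) in MYTHO-KD, a log2 difference of 0.14 (95% interval -0.30 to 0.58, adjusted p = 0.849). *Exoc2*, on chromosome 13 from 30813918 to 30974047, encodes the counterpart of Sec5, a subunit to which active Ral binds. It averaged 11.52 (SD 0.52) in scramble and 11.40 (SD 0.36) in MYTHO-KD, a difference of -0.12 (-0.70 to 0.46, adjusted p = 0.914). The intervals of both genes left out a 2-fold change in either direction. *Exoc3*, the counterpart of Sec6, lies on chromosome 13 from 74169798 to 74208700. Its average was 10.46 (SD 0.16) in scramble and 10.84 (SD 0.23) in MYTHO-KD, a difference of 0.38 (0.0031 to 0.76, unadjusted p = 0.0484, adjusted p = 0.413). That gap was close to the sum of the SDs, 0.39.

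In the EXOC5 to EXOC8 subcomplex, 3 genes were lower and 2 higher, with a median difference of -0.23 and none past the adjusted threshold. *Exoc6*, on chromosome 19 from 37550418 to 37683253, had the lowest p among them. It encodes a counterpart of yeast Sec15, which binds Rab GTPases on the vesicle. Its average was 12.24 (SD 0.37) in scramble and 11.60 (SD 0.20) in MYTHO-KD, a log2 difference of -0.64 (standard error 0.206, 95% interval -1.09 to -0.19, unadjusted p = 0.00912, adjusted p = 0.233). This placed it at 64.2% of scramble. Its paralog *Exoc6b* lies on chromosome 6 from 84618486 to 85069513 and had a difference of the opposite sign. It averaged 9.79 (SD 0.23) in scramble and 10.16 (SD 0.19) in MYTHO-KD, a difference of 0.37 (-0.015 to 0.76, unadjusted p = 0.0583, adjusted p = 0.435). Neither paralog passed, and the difference between them was not tested.

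*Exoc7*, on chromosome 11 from 116287998 to 116307233, encodes the counterpart of Exo70, which like EXOC1 binds phosphoinositides at the plasma membrane and is a target of the GTPase TC10. Its average was 9.19 in scramble and 8.66 in MYTHO-KD, a log2 difference of -0.53 (-1.03 to -0.027, unadjusted p = 0.0405, adjusted p = 0.390). Without moderation its unadjusted p was 0.0841 (interval of the difference -1.16 to 0.10), and with unequal variances 0.129 (-1.34 to 0.28). Its SDs were unlike each other, 0.05 in scramble and 0.51 in MYTHO-KD, a ratio of 10.2. A ratio of 10 or more was found in 76 probe sets, or 0.342% of all. *Exoc8*, the counterpart of Exo84 and another subunit to which active Ral binds, lies on chromosome 8 from 124890299 to 124897705 and showed the opposite spread. Its SD was 0.42 in scramble and 0.05 in MYTHO-KD, around averages of 8.31 and 8.42, a difference of 0.11 (-0.34 to 0.56, adjusted p = 0.895). An SD at least 8 times larger in scramble than in MYTHO-KD was found in 0.581% of probe sets. *Exoc5*, on chromosome 14 from 49012144 to 49066667, encodes the counterpart of Sec10, and its average was 9.54 (SD 0.12) in scramble and 9.31 (SD 0.21) in MYTHO-KD, a difference of -0.23 (-0.59 to 0.13, adjusted p = 0.642).

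**Figure D2:**
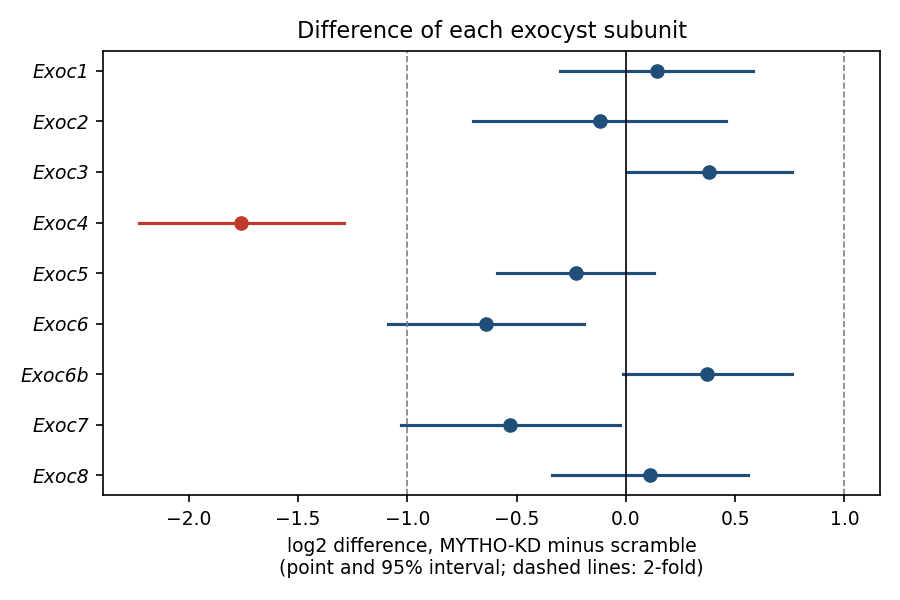
Log2 difference of each exocyst gene, MYTHO-KD minus scramble (horizontal axis; point and 95% interval from the moderated standard error; dashed lines, 2-fold). *Exoc4*, in red, is the gene past the adjusted threshold at -1.76, and the other 8 lie between -0.64 and 0.38.

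**Figure D3:**
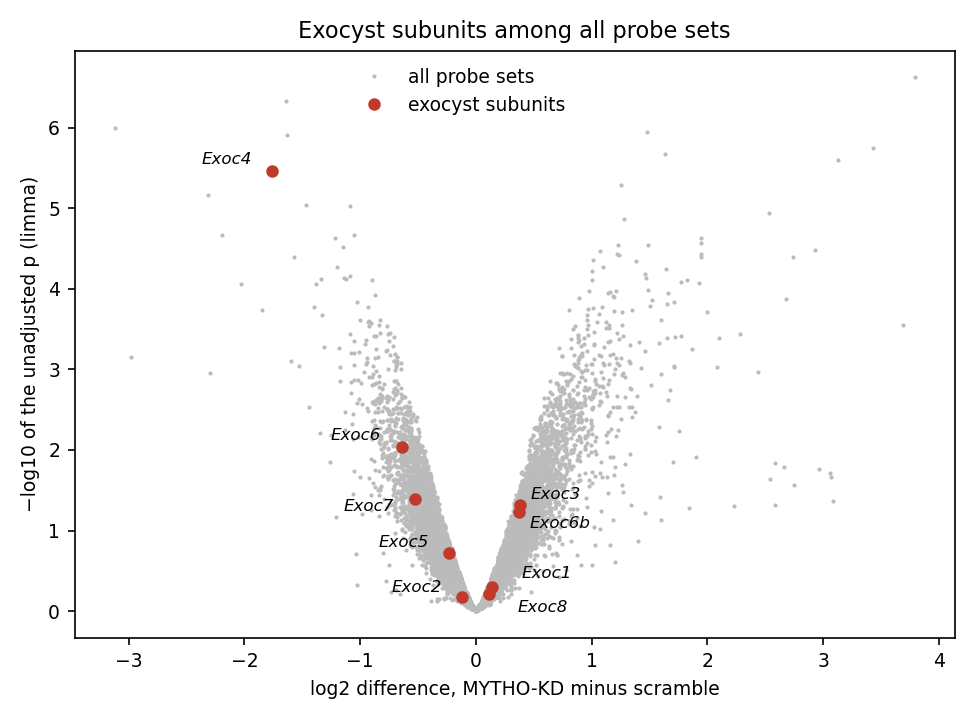
Log2 difference (horizontal axis) against −log10 of the unadjusted p (vertical axis) for all 22206 probe sets in grey and the 9 exocyst genes in red. *Exoc4* stands apart at the upper left, with 8 probe sets at a lower p, and the other subunits lie within the grey cloud.

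The genes next to the subunits were read for differences over the same stretch of chromosome. The 18 nearest probe sets were taken by order of start coordinate, 1 before and 1 after each subunit. Of these, 0 passed the adjusted threshold, where 0.0946% of all probe sets were lower and 0.180% higher. Before adjustment 1 lay under 0.05, *Gnpat* beside *Exoc8* (log2 difference 0.52, adjusted p = 0.219, limma). The probe sets flanking *Exoc4* were *Chchd3*, at 0.16 (adjusted p = 0.758), and *Lrguk*, at 0.17 (adjusted p = 0.869). Within 2 Mb on either side of *Exoc4*, the 24 other probe sets had differences from -0.77 (*Bpgm*) to 0.64 (*Mtpn*) with a median of 0.045, and 0 of them passed. At an unadjusted p under 0.05, 1 was lower and 3 were higher, where 5.52% of all probe sets were lower and 6.48% higher. Some subunits share bases with a neighbour in the table's coordinates. *Hus1b*, at -0.14 (adjusted p = 0.866), lies inside *Exoc2*, so that no probe set upstream of *Exoc2*, on the minus strand, was read. *Ap5m1*, at -0.14 (adjusted p = 0.874), overlaps *Exoc5*, which is on the minus strand, by 173 bases at its start.

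**Figure D4:**
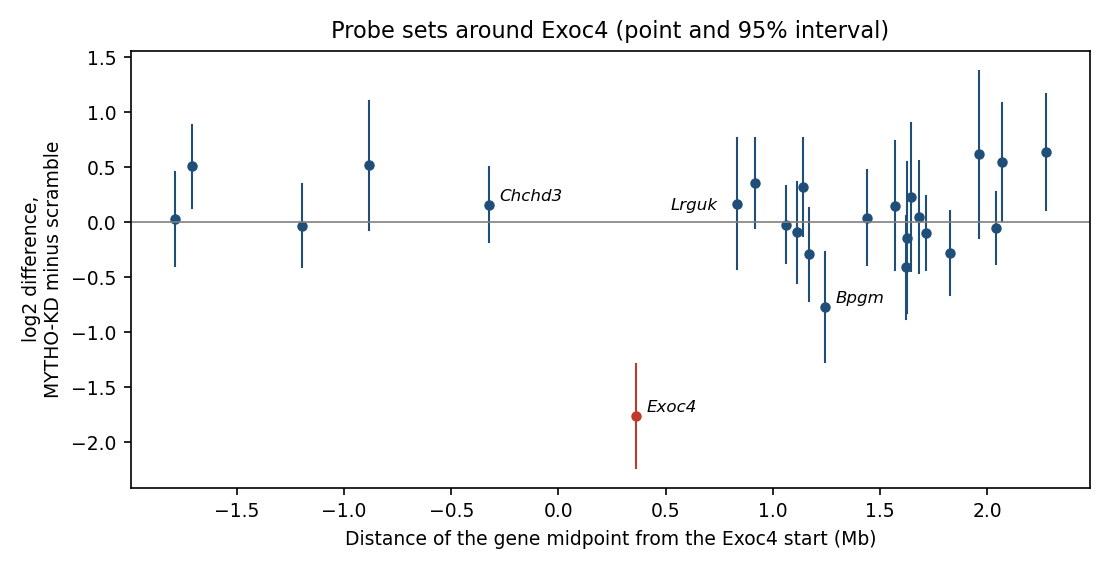
Log2 difference, MYTHO-KD minus scramble, of *Exoc4* (red) and the 24 other probe sets within 2 Mb (blue), by the distance of the gene's midpoint from the *Exoc4* start (horizontal axis, Mb; vertical lines, 95% interval). *Exoc4* lies at -1.76, and the lowest of the others is *Bpgm* at -0.77.

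RefSeq gave promoter windows for all 9 genes, 13 windows in all because some genes have several starts. A RefSeq start is not always the outer end of the gene as given above. The *Exoc7* window and an *Exoc2* window lie inside those spans, and the *Exoc4* window and some *Exoc1* windows run into them. Below, a match before a gene is one before its RefSeq start. The 250 bases before each start were searched on both strands for 7 motifs, and *Exoc4* was the subunit gene with a match to the E-box CAGCTG, which 13.0% of 32851 windows hold. Its window also held 2 matches to CCAAT (33.8% of windows) and 1 to the ETS core CCGGAA (12%), which falls across the end of the sequence printed above. CCGGAA was also found before *Exoc1* and *Exoc3*, and CCAAT before *Exoc1*. The GC box GGGCGG (32.7%) was found before *Exoc1*, *Exoc3*, *Exoc6*, *Exoc7* and *Exoc8*, with 5 matches before *Exoc6*. The E-box CACGTG (6.02%) was found in some windows of *Exoc1*. The FoxO motif GTAAACA (3.17%) and TATAAA (12.4%) had no match in any window of these genes. *Exoc2*, *Exoc5* and *Exoc6b* had none of the 7. These are matches of letters and say nothing of binding.

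The genes that work with the exocyst were set beside it in 12 lists with 140 names, of which 139 were measured and *Rgl4* was not matched. Of these, 1 was higher and 0 were lower at an adjusted p under 0.05, where 0.180% of all probe sets were higher and 0.0946% lower. At an unadjusted p under 0.05, 15 were higher and 9 lower, against 6.48% and 5.52% of all probe sets. Of the GTPases that bind the exocyst or guide its vesicles, 0 of 14 passed, with 9 higher, 4 lower and 1 equal (median log2 difference 0.215). *Rala* and *Ralb*, which encode the GTPases bound by EXOC2 and EXOC8, had differences of 0.44 (adjusted p = 0.497) and 0.34 (adjusted p = 0.493). The lowest p-values in that list were those of *Arf6* (0.61, adjusted p = 0.229), *Rhoq*, which encodes TC10 (-0.51, adjusted p = 0.277), and *Rab8b* (0.55, adjusted p = 0.343).

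At an adjusted p under 0.05, 0.180% of all probe sets were higher and 0.0946% lower. Of 25 regulators of those GTPases, 1 rose by that rule, *Tbc1d1*, which encodes a Rab GTPase-activating protein of GLUT4 traffic. Its average was 9.69 (SD 0.41) in scramble and 11.46 (SD 0.63) in MYTHO-KD, a log2 difference of 1.77 (standard error 0.302, 95% interval 1.11 to 2.43, adjusted p = 0.0388, limma), and it was not called without moderation. The list as a whole had 9 genes higher and 16 lower, with a median of -0.01. *Tbc1d4*, the paralog of *Tbc1d1*, was at -0.53 (adjusted p = 0.391). Subunits of the complex that inactivates Ral, *Ralgapb* (-0.58, adjusted p = 0.207) and *Ralgapa1* (-0.60, adjusted p = 0.343), did not pass, nor did *Rab11fip5* (0.49, adjusted p = 0.207).

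GLUT4 vesicle cargo is carried by the vesicles that the exocyst tethers in muscle. In that list 6 of 7 genes were higher and 1 lower (median 0.30). Of these, 0 passed the adjusted threshold, where 0.0946% of all probe sets were lower and 0.180% higher. *Sort1*, which encodes the sorting receptor sortilin, averaged 12.88 (SD 0.09) in scramble and 11.83 (SD 0.46) in MYTHO-KD (-1.05, adjusted p = 0.0771), and *Lrp1*, which encodes an endocytic receptor, averaged 9.26 (SD 0.51) and 10.26 (SD 0.50) (1.00, adjusted p = 0.191). Both met the study's 2-fold rule by the p-values computed here, in opposite directions, with *Lrp1* at exactly 2-fold in the rounded averages. By that rule 0.257% of all probe sets were lower and 0.860% higher. *Lnpep*, which encodes the aminopeptidase IRAP, was at 0.60 (adjusted p = 0.183), and *Slc2a4*, the gene of GLUT4 itself, was at 0.17 (95% interval -0.24 to 0.58, adjusted p = 0.795).

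The adjusted threshold was passed by 0.0946% of all probe sets as lower and 0.180% as higher. No gene passed it among motors and scaffolds of late secretory carriers (9 of 13 higher, median 0.11) or plasma membrane SNAREs and their partners (11 of 25 higher, 13 lower, median -0.04). Among the former the lowest p-values belonged to *Myo5c* (-0.56, adjusted p = 0.255), *Myo1c* (0.69, adjusted p = 0.315), a myosin of GLUT4 vesicle delivery, and *Gipc1* (-0.45, adjusted p = 0.325). Among the latter they belonged to *Stx4a* (0.63, adjusted p = 0.168), the plasma membrane SNARE used by GLUT4 vesicles, *Vamp8* (0.55, adjusted p = 0.307) and *Syt7* (0.46, adjusted p = 0.307). In the list of genes related to *Exoc3* the median was 0.085. *Tnfaip2* was at 0.97 (SD 0.27 in scramble and 0.78 in MYTHO-KD, adjusted p = 0.259), and *Exoc3l*, *Exoc3l2* and *Exoc3l4* had averages under 5, near the lower end of the scale, where a fall can be hidden.

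Tethering complexes of other membranes served as a comparison of like machinery. None of 40 subunits of 5 groups of complexes passed the adjusted threshold, where 0.0946% of all probe sets were lower and 0.180% higher. At such shares a count of 0 among 40 genes says little about these complexes. Of the COG complex of the Golgi, related in structure to the exocyst, 3 of 8 genes were higher and 5 lower (median -0.12, range -0.46 to 0.24), the lowest being *Cog6* (adjusted p = 0.421). GARP and EARP genes had a median of 0.23 over 5 genes, with *Vps52* at 0.35 (adjusted p = 0.448), and Dsl1 genes a median of 0.31 over 3, with *Rint1* at 0.31 (adjusted p = 0.628). HOPS and CORVET genes had a median of -0.035 over 10, with *Tgfbrap1* at -0.49 (adjusted p = 0.346), and TRAPP genes a median of -0.03 over 14, with *Trappc10* at 0.37 (adjusted p = 0.438). The 11 autophagy genes whose products meet RalB and the exocyst had a narrow range, -0.25 to 0.14 (median 0.01), and 0 passed. *Becn1*, of the PI3-kinase complex that starts autophagosomes, was at -0.25 (adjusted p = 0.661), *Pik3r4* at 0.14 (adjusted p = 0.896) and *Ulk1* at -0.13 (adjusted p = 0.909).

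**Figure D5:**
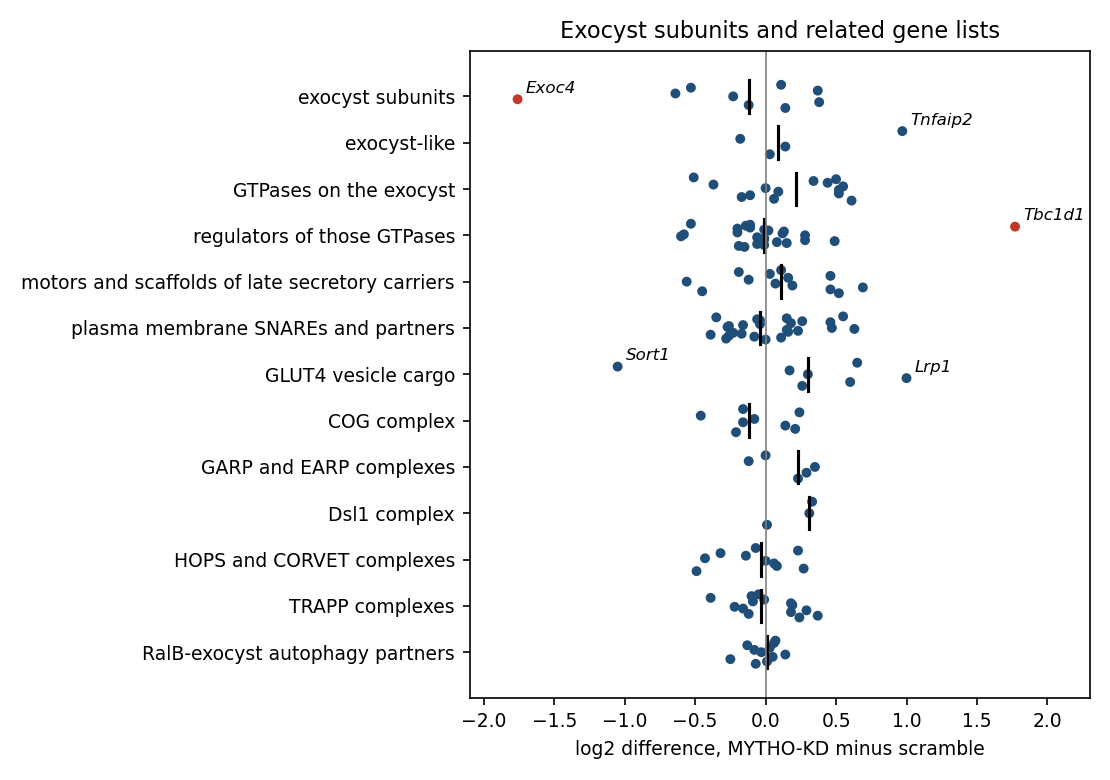
Log2 difference, MYTHO-KD minus scramble (horizontal axis), of each exocyst gene and of the genes in the 12 related lists (rows). Each point is a gene, black bars are list medians and red marks an adjusted p under 0.05. *Exoc4* at -1.76 and *Tbc1d1* at 1.77 are the points in red.

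Markers of the cell types in the muscle were read beside the subunits. At the adjusted threshold, 0.0946% of all probe sets were lower and 0.180% higher. Muscle fibre genes had averages between 17.58 and 19.93, with 2 higher, 4 lower and 4 equal, and 0 of 10 passed. The 4 equal genes were at 19.93 in both groups, the top of the scale, where a change can be hidden. The higher genes were *Mb*, the gene of myoglobin, from 18.82 in scramble to 19.75 in MYTHO-KD (0.93, adjusted p = 0.0754), and *Myh1*, from 17.58 to 18.17 (0.59, adjusted p = 0.230). All 10 macrophage markers were higher (median 0.695), with medians of the averages of 6.63 in scramble and 7.50 in MYTHO-KD, and 2 passed, *Cd68* (2.53) and *Lyz2* (1.94). All 10 fibroblast markers were higher (median 0.93), with medians of 9.22 and 10.23, and *Lum* (1.49) and *Bgn* (1.94) passed. All 8 endothelium markers were higher (median 0.355) and all 8 lymphocyte markers lower (median -0.205), and 0 of either list passed. The lymphocyte markers had medians of the averages of 5.58 in scramble and 5.31 in MYTHO-KD. These are near the lower end of the scale, which limits what their differences show. Of satellite cell and regeneration markers, 5 of 8 were higher and 2 lower (median 0.17), and 0 passed, with *Mymk* at 1.77 (adjusted p = 0.0749). The remaining gene, *Myh8*, read 19.93 in both groups and was likewise at the top of the scale. The part of these marker differences in the fall of *Exoc4*, or in the differences of the other subunits, was not tested.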

How the data were processed

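Total RNA of 8 GAS muscles was hybridized to Clariom S Mouse arrays. Per the methods, the authors ran the Transcriptome Analysis Console, with SST-RMA as its normalization, and the submitters' processing notes name Affymetrix Expression Console and RMA. The deposited table (28 columns, build mm10) gives the authors' averages and SDs of each group on the log2 scale; its fold changes, p-values and false discovery rates were not used, and 0 columns of single arrays were left unused. From these averages and SDs a moderated test was computed with limma 3.58.1 (squeezeVar) in R 4.3.3, with 6 residual degrees of freedom, prior SD 0.284 and prior degrees of freedom 5.85. P-values are two-sided and adjusted by Benjamini-Hochberg over 22206 probe sets. Standard errors, intervals and p-values take the 8 muscles as independent. Any pairing of the legs of a mouse was left out. The test was checked on simulated data. Whether the averages are plain means is not given in the sources used here; for robust averages the p-values are somewhat too low.

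The members and lists were chosen with earlier results of these data known. Named genes are all subunits, the target, the nearest probe sets, and from each list the genes called and those with the 3 lowest p-values, shortened in the text to fewer for other tethering complexes and cell markers; others were named for their role, and *Bpgm* and *Mtpn* after their values were seen. A gene with several probe sets was read from its brightest one. Alternatives were unmoderated variances, a trend with robust fitting, unequal variances, dim probe sets left out (mean under the 30th percentile, 5.715), 1 probe set per symbol, probe sets expressed in both groups, and other call rules. Arrays have no sequencing depth, and their number, 4 per group, limits the precision.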

Additional observations from a re-analysis of the deposited data

How the results depend on the processing

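The log2 differences of the subunits kept their values under every alternative, since these change only the variances and the probe sets tested. *Exoc4* stayed at -1.76 and lost its call without moderation (adjusted p = 0.126) and with unequal variances (adjusted p = 0.302), so that 0 subunits were called lower under each. The share of all probe sets called under these settings is not given here. A loss of calls across all probe sets therefore cannot be told from one particular to *Exoc4*. Over the 6 alternatives the adjusted p of *Exoc4* ran from 0.000708 to 0.302. None of the other 8 subunits passed under any of the 6, with *Exoc6* between 0.163 and 0.525. By the unadjusted p of the moderated test, 3 subunits were lower and 1 higher. *Exoc7* was not under 0.05 without moderation (unadjusted p = 0.0841) or with unequal variances (0.129). *Exoc6b*, which was higher, came under 0.05 in both (0.0478 and 0.0492). Without moderation 0 genes were called among regulators of the GTPases, macrophage markers and fibroblast markers. With a trend and robust fitting 1 gene was called in each of GLUT4 vesicle cargo, muscle fibre markers and satellite cell and regeneration markers, and the calls among macrophage markers and among fibroblast markers went from 2 to 3 each. The share of all probe sets called is not given for these alternatives. These counts may thus only follow a change in the number of calls over all probe sets. With dim probe sets left out the list of genes related to *Exoc3* kept *Tnfaip2* alone, and its median was 0.97. No list median reversed its direction under the alternatives run. For single genes a reversal was not possible, because their log2 differences do not depend on these settings. No paired analysis was possible because the table holds group averages and not the values of single arrays. The replicate block and leaving out each array in turn were not run for that reason. Low signals, as in the *Exoc3*-related genes, limit what can be seen as lower.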
